A study of Mus musculus with 6 samples.

Results

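Genes of fatty acid oxidation and targets of the peroxisome proliferator-activated receptors (PPARs) were read from bead array measurements of whole lung taken at postnatal day 6. The set was defined by gene symbol and comprised 39 genes, with Plin2 listed on the array under its older symbol Adfp. Of these, 38 were found among the 18138 gene symbols of the array, with 68 probes, and Hadha was not matched. All lungs came from male pups of strain FVB (FVB/N in the study's methods), 3 labelled hSRY-OFF and 3 labelled hSRY-ON. The transgene of the line, Signalox-hSRY, was inserted as a single copy at the H11 locus and carries human SRY and EGFP behind a floxed DsRed2 cassette. It is driven by the CAG promoter, which is active in most cell types, so that its expression was not restricted to the lung. In hSRY-ON pups Cre from the oocytes of Ddx4-Cre mothers had removed DsRed2, and the hSRY-ON mice chosen for the arrays did not carry the Ddx4-Cre transgene themselves. The study's methods use hSRY-OFF for mice that hold the transgene unrecombined, but its control littermates lacked that transgene, being non-transgenic or carrying Ddx4-Cre alone, so that the transgene in the hSRY-OFF lungs rests on their label. All recombined animals share the 1 insertion site of the line.

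Fatty acids enter cells after lipoprotein lipase has released them from triglyceride, are bound by carrier proteins and are joined to coenzyme A by acyl-CoA synthetases. Long-chain acyl groups cross into mitochondria through the carnitine shuttle, are shortened there by beta-oxidation and pass electrons to the respiratory chain through the electron transfer flavoprotein, while very long and branched chains are first shortened in peroxisomes. PPARs are nuclear receptors that bind fatty acids and, together with the retinoid X receptors, switch on many of these genes, most strongly in liver, heart and fat during fasting. In the lung, type II cells of the alveoli use fatty acids to build surfactant and alveolar macrophages take up and degrade surfactant lipid.

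The values are log2 intensities, the brightness of a probe after background correction and quantile normalization, and a log2 change is the hSRY-ON mean minus the hSRY-OFF mean. The detection p compares a probe with the negative controls of its array, and probes with a value under 0.05 in 3 lungs or more were tested. A probe was called where the adjusted p from limma was under 0.05. The arrays detected 13191 to 14134 probes each. Correlations between arrays were 0.991 to 0.993 among hSRY-OFF, 0.972 to 0.980 among hSRY-ON and 0.935 to 0.959 between the groups. All 8 genes of a list of lung markers passed the filter. The mouse Sry probe was detected on 0 arrays, and human SRY, which would check the labels, was not read.

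Genes of the set were higher in hSRY-ON lungs more often than lower. The set was chosen with earlier results of these data known, so the shares below describe it and do not test it. After the filter, 46 probes for 30 genes could be tested, and 17 probes were called, which is 37.0% beside 26.9% of all 13841 tested probes. Of these, 16 were higher in hSRY-ON, or 34.8% beside a background of 13.6%, and 1 was lower, or 2.17% beside 13.3%. At gene level, 14 genes had a probe that rose, 1 had a probe that fell and 15 had no called probe. The median log2 change of the 46 probes was 0.36, and that of all tested probes was -0.035. The change was above 0 for 37 probes and below 0 for 9. In 10 probes the called rise was at least 2-fold, or 21.7% beside 5.51% of all tested probes. The 2 groups did not overlap in 30 of the 46 probes, or 65.2% beside 46.6%. Without hSRY-OFF replicate 2 or without hSRY-OFF replicate 3 the number of called probes was 11, against 17 with all arrays. That is 23.9% of the set in each case, beside 12.6% and 16.1% of all tested probes in the same fits, and 10 of the 17 were called whichever array was left out.

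In bulk lung RNA, a change in the number of cells of a type and a change in RNA per cell cannot be told apart, and the levels of cell type markers differed between the groups. Of 16 tested probes for macrophage markers, 9 were higher in hSRY-ON and 0 lower, beside 13.6% higher and 13.3% lower among all tested probes. The 9 came from 6 of 9 tested genes, and the Lyz2 probe ILMN_2766780 passed the filter through hSRY-ON alone. No probe of Adgre1 (-0.26, 0.09 and 0.15) or Csf1r (0.41 and 0.125) was called. The summed intensity of the list, whose brightest probe was for Lyz2, was 26190 to 27620 in hSRY-OFF and 38620 to 58280 in hSRY-ON. The sum also holds the probes of Chil3, whose log2 changes of 3.72, 3.76 and 3.305 were the largest of the list. Mrc1 (CD206) rose by 1.11 (limma, adjusted p = 0.0105) and Lyz2, lysozyme, by 0.40 (limma, adjusted p = 0.0404). Of 17 probes for type II cell markers 8 were higher and 0 lower, with Sftpd, surfactant protein D, 0.39 higher (limma, adjusted p = 0.0421). Both Sftpb probes (0.67 and 0.525), every Napsa probe (0.58, 0.50 and 0.48) and the brighter Abca3 probe (0.605) were also called. The dimmer Abca3 probe, at -0.066, was not. The brightest probe of the list, for Lyz1, changed by 0.13 (limma, adjusted p = 0.380). Of the other Lyz1 probes, ILMN_2736867 rose by 0.74 (limma, adjusted p = 0.0477) and ILMN_1247933 changed by 0.29 without passing. Sftpc, surfactant protein C, changed by -0.25 and did not pass. Both probes of Lamp3, a protein of lamellar bodies, lay below 0, at -0.31 and -0.18, and neither passed. The call of the Lyz2 probe at 0.40 was lost without any 1 of 5 arrays and that of Sftpd likewise. Capillary endothelial markers had 0 of 12 probes higher and 3 lower, and their sums did not overlap, at 49440 to 53720 in hSRY-OFF and 39800 to 45470 in hSRY-ON. Cardiac muscle markers moved both ways, with 3 of 10 probes higher and 2 lower: Myl3 rose by 1.12 (limma, adjusted p = 0.00437), whereas the atrial light chain Myl4 fell by 1.94 (limma, adjusted p = 0.00501). Liver markers were near the detection limit, with sums of 146.1 to 183.8 in hSRY-OFF and 346.6 to 773 in hSRY-ON. Of their 5 tested probes, which the sums cover, 4 were higher, and these 4 passed the filter through hSRY-ON alone. A further Ahsg probe, detected on 1 hSRY-ON array, was not tested. Ahsg (ILMN_2764036) was at least 3.98-fold and Fga (ILMN_2624363) at least 3.30-fold above the level that hSRY-OFF arrays could detect, on the background-corrected scale. Their unbounded log2 changes were 2.23 (limma, adjusted p = 0.00575) and 2.22 (limma, adjusted p = 0.00675). Without background correction their log2 changes were 0.83 and 0.79. Alb, Ttr, Fgb, Afp, Apoc3 and Tat were detected on no array. Skeletal muscle markers had 0 of 6 tested probes called in limma, and 1 with an unadjusted p under 0.05. Of the adipocyte markers only Lipe was tested and it was not called, and Retn, Lep, Plin1, Cidec and Pck1 were detected on no array. The part of these cell types in the changes described below was not tested.

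**Figure D1:**
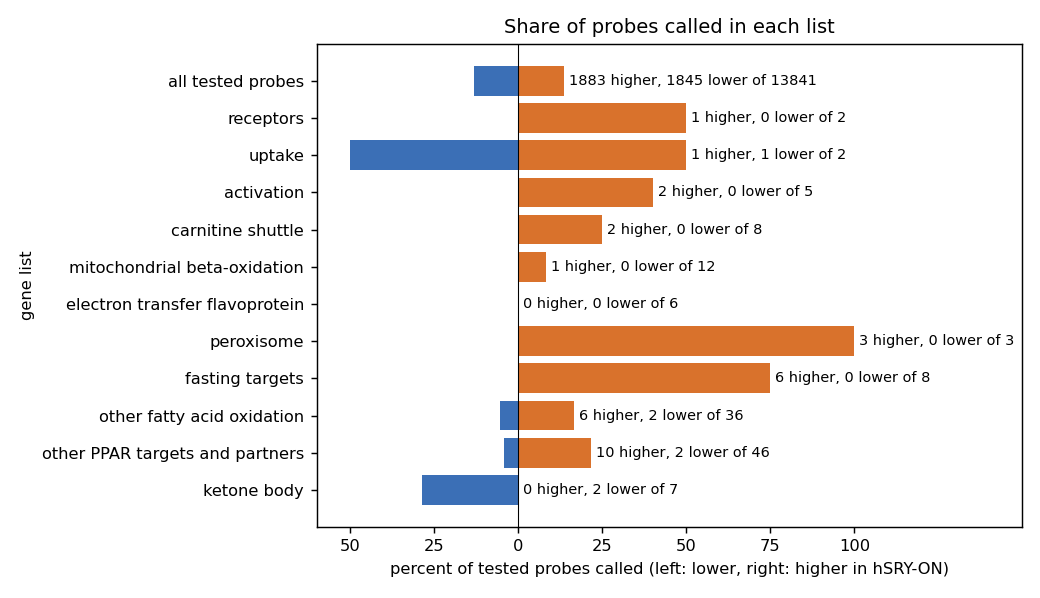
Percent of tested probes called lower (left) and higher (right) in hSRY-ON lungs for all 13841 probes, for the roles within the gene set and for related lists, with counts at each bar. All 3 peroxisomal probes, of 2 genes, and 6 of 8 probes of fasting targets were higher, beside 13.6% of all probes. Of the 6 probes of the electron transfer flavoprotein 0 were called, beside 26.9%.

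The genes usually induced by fasting held the largest number of called probes of any role, among roles with 2 to 12 tested probes. Of 8 tested probes 6 were higher and 0 lower, beside 13.6% and 13.3% of all tested probes. At an unadjusted p under 0.05 also 0 were lower, and the median log2 change was 1.08. Pdk4, the kinase that shuts down pyruvate dehydrogenase and so spares glucose, showed the largest difference of the set. Its probe (ILMN_1259322) read 6.67, 6.89 and 6.93 in the hSRY-OFF lungs and 10.31, 11.08 and 8.95 in the hSRY-ON lungs, a log2 change of 3.29 ± 0.48 (SE, n = 3 per group) or 9.75-fold (limma, adjusted p = 0.00480). All hSRY-ON lungs lay above all hSRY-OFF lungs, with the spread in hSRY-ON (SD 1.08) much larger than that in hSRY-OFF (SD 0.14). Without background correction the change was 2.33.

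Plin2, the coat protein of lipid droplets (ILMN_1222246, Adfp), read 9.57, 9.23 and 9.19 in hSRY-OFF and 10.39, 10.50 and 10.15 in hSRY-ON, a rise of 1.02 ± 0.16 (SE; limma, adjusted p = 0.00563). Txnip, an arrestin-type protein that limits glucose uptake and binds thioredoxin, read 12.59, 13.06 and 12.90 against 13.84, 14.08 and 13.68, a rise of 1.02 ± 0.17 (SE; limma, adjusted p = 0.00726). The groups were separate for both genes, and both stayed called without any 1 array.

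The acyl-CoA thioesterases Acot1, in the cytosol, and Acot2, in mitochondria, release free fatty acid from coenzyme A and are well-known PPAR targets. Acot1 was 12.20, 12.33 and 12.21 in hSRY-OFF and 13.73, 13.53 and 12.96 in hSRY-ON for one probe (ILMN_3139875), a rise of 1.16 ± 0.20 (SE; limma, adjusted p = 0.00844). The other probe of Acot1 (ILMN_3062267) rose by 1.19 (limma, adjusted p = 0.0156), and this call was lost without hSRY-OFF replicate 1 or hSRY-OFF replicate 3. In both probes hSRY-ON replicate 1 was highest and replicate 3 lowest, and no hSRY-ON lung reached the hSRY-OFF range. Acot2 was less uniform, with a rise of 1.14 (limma, adjusted p = 0.00714) for ILMN_2745889, from 6.41, 5.80 and 6.26 to 7.47, 7.09 and 7.34, and a change of 0.33 (limma, adjusted p = 0.180) for ILMN_2840492. Without background correction the called Acot2 change was 0.49. The 2 genes are close in sequence, and since the probe sequences were not used here, it was not tested whether a probe binds both transcripts.

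Angptl4, a secreted inhibitor of lipoprotein lipase, did not pass the test (log2 change 0.54; limma, adjusted p = 0.0557), although its values of 12.04, 12.06 and 12.01 in hSRY-OFF and 12.69, 12.80 and 12.22 in hSRY-ON did not overlap. It passed in 8 of 16 alternatives. The uncoupling proteins Ucp2 and Ucp3 were not tested. All 3 Ucp2 probes were below detection in hSRY-OFF and were detected on 1, 2 and 2 of the 3 hSRY-ON arrays, and both Ucp3 probes were detected on none.

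**Figure D2:**
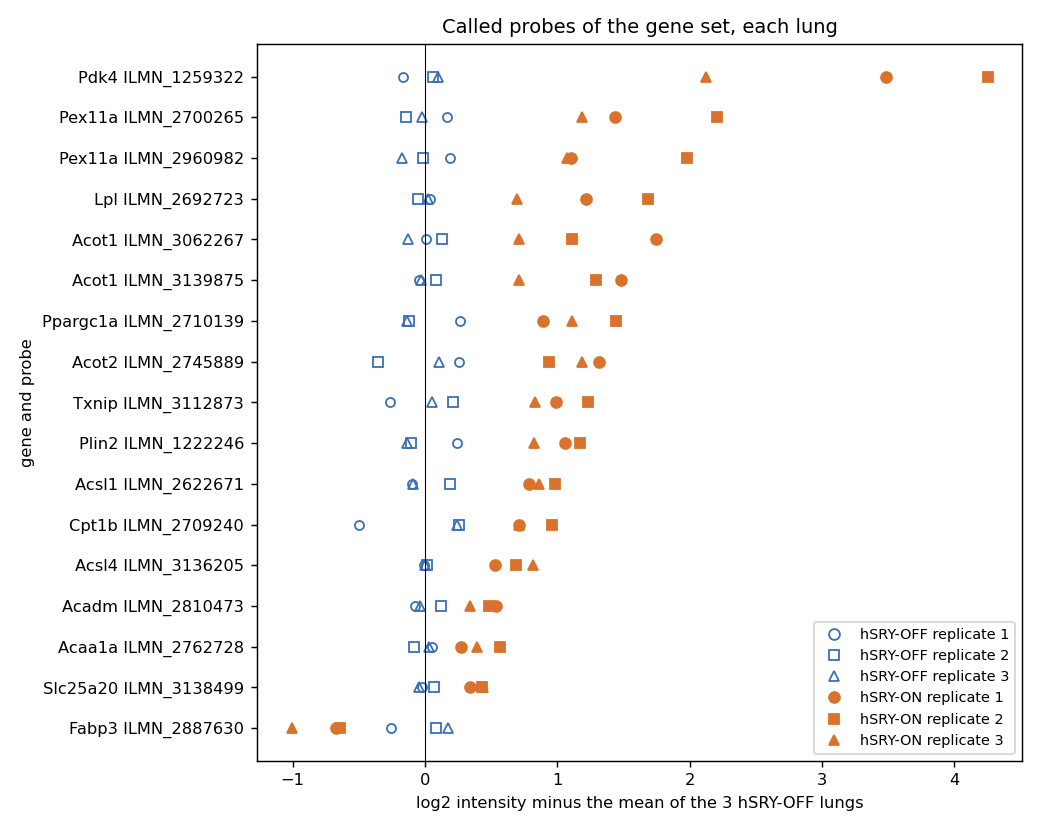
Log2 intensity of each lung minus the hSRY-OFF mean (horizontal axis) for the 17 called probes, with open blue symbols for hSRY-OFF and filled orange symbols for hSRY-ON, 1 symbol shape per replicate number, which does not pair the animals. In every called probe the groups are apart, and hSRY-ON replicate 2 lies farthest from the hSRY-OFF mean in 10 of 17.

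The promoters of the set were inspected for the element that PPAR and retinoid X receptor pairs are known to bind, the hexamer AGGTCA repeated after 1 base and searched on both strands. RefSeq promoters of 300 bases (250 before and 50 after the start; GRCm38.p6) were found for 32 of the 39 genes, 35 promoters in all. An exact pair was found in 0 of the 35 and in 13 of all 32851 promoters, or 0.0396%. With up to 1 mismatch in each hexamer, 3 of the 35 or 8.57% held a match, beside 787 or 2.40% of all promoters. The 3 matches are shown with the hexamers in capitals. Cd36 is a fatty acid transporter, Etfa a subunit of the electron transfer flavoprotein and Slc25a20 the carnitine-acylcarnitine carrier, and the match begins at -63, -77 and 6 bases from the start, respectively. In Cd36 and Etfa the capitals are the reverse complement of the motif.
Cd36, chr5:17835938-17835967, minus strand: tggttctcTGGCCTcTGACTTacttggatg
Etfa, chr9:55512299-55512328, minus strand: gcacacccTTACCTtTGCCCTactcccaag
Slc25a20, chr9:108662134-108662163, plus strand: ctgaatgtAGGTGAaAGGTCGgcggagccg
A match is a run of letters and not a measured binding site. Of these genes only Slc25a20 had a called probe. Etfa was tested and not called, and Cd36 was not tested because its probe was detected on no array. The 250 bases before the start of Pdk4 and of Pex11a, the genes with the largest rises, held 0 matches by the same search and are given in full for that reason, in lower case because nothing is marked.
Pdk4, chr6:5496279-5496528, minus strand: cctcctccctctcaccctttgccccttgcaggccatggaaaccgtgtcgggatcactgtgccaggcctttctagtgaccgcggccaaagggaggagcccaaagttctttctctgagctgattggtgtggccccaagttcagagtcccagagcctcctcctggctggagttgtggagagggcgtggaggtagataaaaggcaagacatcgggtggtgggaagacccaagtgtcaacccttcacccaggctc
Pex11a, chr7:79743132-79743381, minus strand: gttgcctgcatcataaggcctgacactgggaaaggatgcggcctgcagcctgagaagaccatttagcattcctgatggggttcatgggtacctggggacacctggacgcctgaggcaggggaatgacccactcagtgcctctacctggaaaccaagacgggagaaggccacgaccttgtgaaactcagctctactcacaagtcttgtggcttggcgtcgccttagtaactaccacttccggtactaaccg
The windows are short, and elements farther from the start were not searched.

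All 3 tested probes of peroxisomal genes, which cover 2 genes, were higher in hSRY-ON, beside 13.6% of all tested probes. Pex11a, a membrane protein that drives peroxisome division, gave 8.07, 7.76 and 7.89 in hSRY-OFF and 9.34, 10.11 and 9.09 in hSRY-ON with ILMN_2700265, a rise of 1.61 ± 0.26 (SE; limma, adjusted p = 0.00647) or 3.05-fold. A further probe (ILMN_2960982) rose by 1.39 ± 0.26 (SE; limma, adjusted p = 0.0101). Without background correction the change of the latter was 0.92. Both probes were highest in hSRY-ON replicate 2 and were called without any 1 array. Acaa1a, the peroxisomal thiolase that ends each round of chain shortening, read 12.32, 12.19 and 12.30 against 12.54, 12.84 and 12.66, a rise of 0.41 (limma, adjusted p = 0.0494). That call held in 7 of 16 alternatives, and without any 1 of the hSRY-OFF arrays, hSRY-ON replicate 2 or hSRY-ON replicate 3 it was lost. Ehhadh, the peroxisomal bifunctional enzyme and a strong PPAR target in liver, was detected on no array.

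Most probes of the receptors themselves were not detected, which does not show that the genes were low, since probes of Pparg differed. The probes of Ppara and Ppard, 1 for each gene, were detected on no array, and of 3 Pparg probes 1 was tested. It read 8.72, 8.58 and 8.37 in hSRY-OFF and 9.10, 9.71 and 8.78 in hSRY-ON, a log2 change of 0.64 that did not pass (limma, adjusted p = 0.0901), with groups that did not overlap. It passed only without hSRY-ON replicate 3. Ppargc1a, the coactivator that couples PPARs to mitochondrial gene expression, read 5.85, 5.46 and 5.44 against 6.48, 7.03 and 6.69, a rise of 1.15 ± 0.19 (SE; limma, adjusted p = 0.00646) that was called without any 1 array. Without background correction the rise was 0.40.

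The 2 uptake genes that could be tested moved in opposite directions. Lpl, lipoprotein lipase, read 12.18, 12.09 and 12.17 in hSRY-OFF and 13.37, 13.83 and 12.84 in hSRY-ON, a rise of 1.20 ± 0.24 (SE; limma, adjusted p = 0.0126) or 2.30-fold. The lowest hSRY-ON lung was above the highest hSRY-OFF lung, and the adjusted p passed except without hSRY-OFF replicate 2, when it was 0.052. Fabp3, the fatty acid carrier of heart and skeletal muscle, was the only called probe of the set that fell. It read 10.85, 11.19 and 11.29 in hSRY-OFF and 10.44, 10.47 and 10.10 in hSRY-ON, and dropped by 0.78 (SE 0.17; limma, adjusted p = 0.0163). The groups were separate, and the call was lost without hSRY-OFF replicate 2 or hSRY-OFF replicate 3. The transporter Cd36 and the adipocyte and macrophage carrier Fabp4 were detected on no array.

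Long-chain acyl-CoA synthetases, which activate fatty acids for any later use, had 2 of 5 tested probes higher, beside 13.6% of all tested probes. Acsl1 read 7.56, 7.85 and 7.57 in hSRY-OFF and 8.44, 8.64 and 8.52 in hSRY-ON, a rise of 0.88 ± 0.13 (SE; limma, adjusted p = 0.00521) and an SD of 0.10 in hSRY-ON. Without background correction it was 0.58. Acsl4, which prefers arachidonic acid, read 8.54, 8.56 and 8.54 against 9.07, 9.23 and 9.36 with ILMN_3136205, a rise of 0.68 (limma, adjusted p = 0.00877). Both were called without any 1 array. A dimmer Acsl4 probe (ILMN_1244872) changed by 0.44 with overlapping groups and did not pass (limma, adjusted p = 0.130). Acsl3 changed by 0.45 (limma, adjusted p = 0.0888) and Acsl5 by 0.035, with a 95% confidence interval of -0.22 to 0.29 for Acsl5.

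In the carnitine shuttle 2 of 8 tested probes were higher and 0 lower, with a median log2 change of 0.30. That is close to the 26.9% called among all tested probes. Slc25a20, the carrier that exchanges acylcarnitine for carnitine, read 11.42, 11.52 and 11.40 in hSRY-OFF and 11.79, 11.87 and 11.89 in hSRY-ON with ILMN_3138499, a rise of 0.40 ± 0.11 (SE; limma, adjusted p = 0.0335). A second tested probe of the gene changed by 0.32 and did not pass (limma, adjusted p = 0.0932). Cpt1b, the muscle form of the outer membrane transferase, rose by 0.79 with ILMN_2709240 (limma, adjusted p = 0.0384), which was detected on 2 hSRY-OFF and all 3 hSRY-ON arrays, and changed by 0.043 with ILMN_1227666 (limma, adjusted p = 0.885). Without background correction the larger Cpt1b change was 0.25 (limma, adjusted p = 0.0670). The Cpt1b call was lost without each of the 6 arrays in turn, and the Slc25a20 call without any array except hSRY-ON replicate 1. The inner membrane transferase Cpt2 changed by 0.39 and did not pass (limma, adjusted p = 0.0595). Crat, which buffers short acyl groups, had 3 probes at 0.20, -0.20 and 0.28, none of which passed. The liver form Cpt1a, the usual control point of the pathway, was detected on no array.

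**Figure D3:**
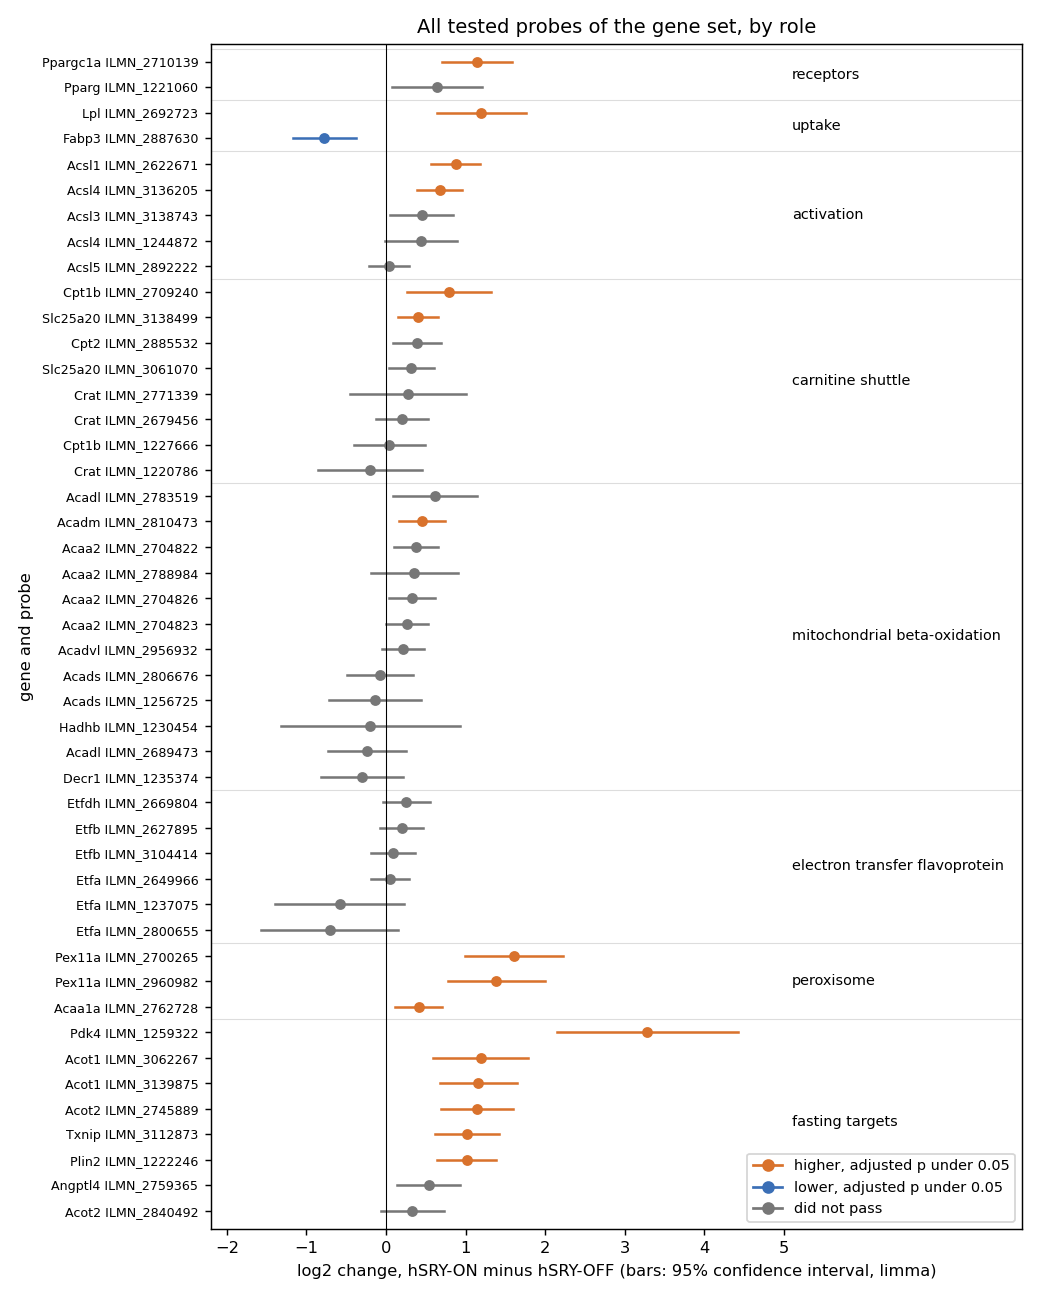
Log2 change between hSRY-ON and hSRY-OFF lungs (point) with its 95% confidence interval from limma (bar) for all 46 tested probes, grouped by role. Called rises, in orange, range from 0.40 (Slc25a20) to 3.29 (Pdk4), the only called fall, in blue, is Fabp3, and most probes of mitochondrial beta-oxidation and the electron transfer flavoprotein cross 0.

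Of the 12 tested probes of mitochondrial beta-oxidation enzymes, whose median log2 change was 0.24, 1 was called, higher, beside 26.9% of all tested probes. At an unadjusted p under 0.05, 5 were higher and 0 lower. Acadm, the medium-chain acyl-CoA dehydrogenase, read 12.15, 12.35 and 12.20 in hSRY-OFF and 12.77, 12.72 and 12.57 in hSRY-ON, a rise of 0.45 ± 0.12 (SE; limma, adjusted p = 0.0331). The groups were separate, and the call was lost without any array except hSRY-ON replicate 3. All 4 probes of Acaa2, the mitochondrial thiolase, lay between 0.26 and 0.37 and none passed, the lowest of the 4 limma adjusted p being 0.054. The probe with that value (ILMN_2704822) passed in 7 of 16 alternatives. Acadvl, the very long-chain dehydrogenase, changed by 0.21 (limma, adjusted p = 0.196), and the short-chain dehydrogenase Acads by -0.075 and -0.14 in 2 probes. Decr1, the reductase needed for polyunsaturated chains, changed by -0.30 (limma, adjusted p = 0.340).

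Hadhb, the thiolase subunit of the trifunctional protein, read 7.75, 7.79 and 8.13 in hSRY-OFF and 8.90, 6.96 and 7.23 in hSRY-ON (limma, adjusted p = 0.785), so that hSRY-ON replicate 1 was above and the other hSRY-ON lungs below the hSRY-OFF range. A similar split was seen in a pair of probes for Etfa. ILMN_1237075 read 8.68, 9.01 and 9.07 in hSRY-OFF and 9.16, 8.04 and 7.80 in hSRY-ON, and ILMN_2800655 read 9.30, 9.13 and 9.58 against 9.52, 8.12 and 8.23. The remaining Etfa probe (ILMN_2649966) lay between 12.99 and 13.06 in all 6 lungs, with a log2 change of 0.049. Acadl, the long-chain dehydrogenase, also gave probes of opposite sign, with -0.23 for ILMN_2689473 (limma, adjusted p = 0.430) and 0.61 for ILMN_2783519 (limma, adjusted p = 0.0831), and hSRY-ON replicate 1 was the highest hSRY-ON lung in both. Without hSRY-ON replicate 1 the number of probes called lower was 5, against 1 with all arrays: Fabp3, Hadhb, ILMN_2689473 of Acadl and the 2 Etfa probes first named. Etfb had 2 probes at 0.20 and 0.086 and Etfdh, the enzyme that hands the electrons to ubiquinone, 1 tested probe at 0.26. Of the 6 probes of the electron transfer flavoprotein 0 passed in limma with all arrays, and 0 had an unadjusted p under 0.05.

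**Figure D4:**
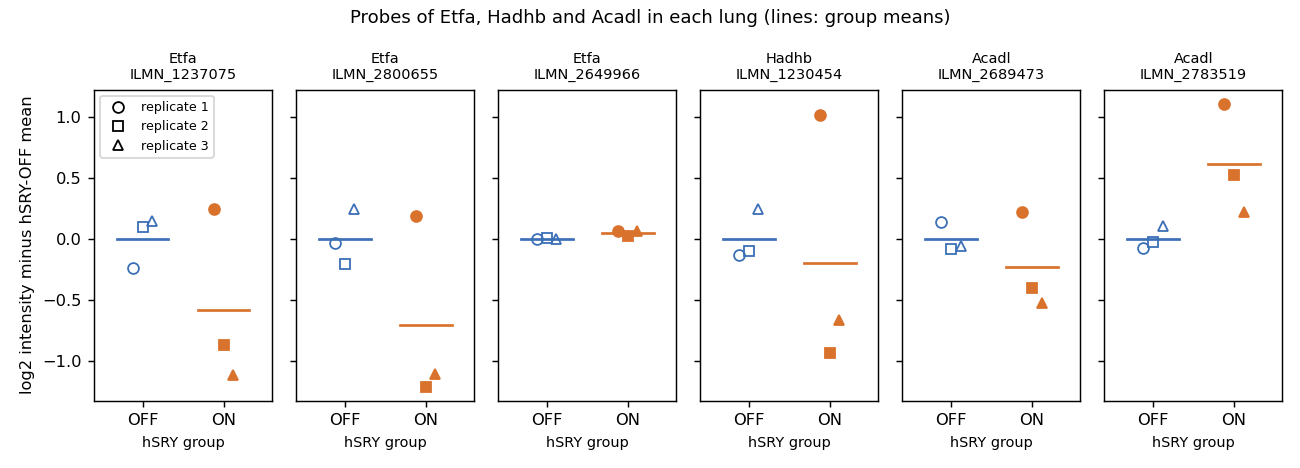
Log2 intensity minus the hSRY-OFF mean of the same probe (vertical axis) in each lung for 6 probes of Etfa, Hadhb and Acadl, with lines at the group means and 1 symbol shape per replicate number. In 4 of the 6 panels hSRY-ON replicate 1 (filled circle) lies above the hSRY-OFF mean and the other 2 hSRY-ON lungs below it.

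The hSRY-ON lungs varied more than the hSRY-OFF lungs, in the set as over the whole array. The SD was larger in hSRY-ON for 34 of the 46 tested probes, or 73.9%, beside 73.6% of all tested probes. Its median over the set was 0.14 in hSRY-OFF and 0.20 in hSRY-ON. Over the 17 called probes, the median distance from the hSRY-OFF mean in the direction of the call was 0.99 for hSRY-ON replicate 1, 1.11 for replicate 2 and 0.82 for replicate 3. Replicate 2 was the farthest of the 3 in 10 probes, replicate 1 in 4 and replicate 3 in 3. Among the 12 genes with several tested probes, the signs of the changes differed in Crat, Acadl and Etfa and were the same in the other 9.

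A wider list of 88 genes, likewise chosen with earlier results known, was read in the same fit. Its genes belong to fatty acid oxidation, PPAR targets and partners, and ketone metabolism, and none is in the set above. For 61 of these genes 89 probes were tested, of which 16 were higher and 6 lower. The Slc27a2 probe among the higher ones was detected in hSRY-ON lungs alone and passed the filter only through them. The 22 called probes were 24.7% of those tested, beside 26.9% of all probes, so that the wider list was called about as often as the array as a whole, with 18.0% higher (13.6% of all probes) and 6.74% lower (13.3%). Other fatty acid oxidation genes had 6 of 36 probes higher and 2 lower (median log2 change 0.073), other PPAR targets and partners 10 of 46 higher and 2 lower (0.13), and ketone genes 0 of 7 higher (3 at an unadjusted p under 0.05) and 2 lower (0.36). Without hSRY-OFF replicate 1 or hSRY-OFF replicate 2, 8 of the 89 probes (8.99%) were called in place of 22, and 12 (13.5%) without hSRY-OFF replicate 3 or hSRY-ON replicate 2. In the same 4 fits 11.9%, 12.6%, 16.1% and 17.8% of all tested probes were called.

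Rises in the wider list included peroxisomal enzymes. Acox2, the peroxisomal oxidase of branched chains, read 6.75, 6.61 and 6.76 in hSRY-OFF and 9.47, 9.53 and 9.32 in hSRY-ON, a rise of 2.73 ± 0.12 (SE; limma, adjusted p = 0.000202). The groups did not overlap, and the probe was called in all 16 alternatives. Acaa1b, the inducible peroxisomal thiolase, rose by 2.39 ± 0.65 (SE; limma, adjusted p = 0.0349), with hSRY-ON values of 11.56, 12.93 and 10.02, and was called in 9 of 16 alternatives. It is close in sequence to Acaa1a, and whether their probes share signal was not tested. The lipid droplet protein Plin4 (array symbol S3-12, detected on 1 hSRY-OFF array) rose by 1.47 (limma, adjusted p = 0.0282) and the fatty acid transport protein Slc27a1 by 1.30 (limma, adjusted p = 0.00761). Acox2 rose by 1.78, Plin4 by 0.51 and Slc27a1 by 0.78 without background correction. The Acaa1b call was lost without any array except hSRY-ON replicate 3, and the Plin4 call without any 1 hSRY-OFF array or hSRY-ON replicate 2. Hadh, Fgf21, Fabp1, Plin1 and Cidec were detected on no array.

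Falls in the wider list included enzymes that use ketones. Bdh2, a cytosolic hydroxybutyrate dehydrogenase, fell by 1.24 (limma, adjusted p = 0.00649), from 8.25, 8.46 and 8.74 in hSRY-OFF to 7.47, 6.88 and 7.38 in hSRY-ON. Oxct1, the mitochondrial transferase that commits ketones to oxidation, fell by 0.71 (limma, adjusted p = 0.0152), from 11.31, 11.28 and 11.18 to 10.32, 10.51 and 10.81. In both the groups were separate. The call of Bdh2 held in all 16 alternatives, and that of Oxct1 was lost without hSRY-OFF replicate 1 or hSRY-OFF replicate 2. Smaller falls were those of Decr2 (-0.57; limma, adjusted p = 0.0391), a peroxisomal reductase, Pcca (ILMN_2674924, -0.51; limma, adjusted p = 0.0201), which handles propionyl-CoA from odd chains, and Mgll (-0.44; limma, adjusted p = 0.0354), which releases the last fatty acid of a triglyceride. The genes have further tested probes. That of Pcca (ILMN_2921698) changed by 0.17 (limma, adjusted p = 0.313), that of Decr2 by -0.43 (limma, adjusted p = 0.0505), and those of Mgll by -0.41 (limma, adjusted p = 0.0425) and -0.20 (limma, adjusted p = 0.288). Bdh2 changed by -0.77, Decr2 by -0.30 and Pcca by -0.30 without background correction. Each of the 3 smaller calls was lost without hSRY-OFF replicate 1, hSRY-OFF replicate 2 or hSRY-ON replicate 2.

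**Figure D5:**
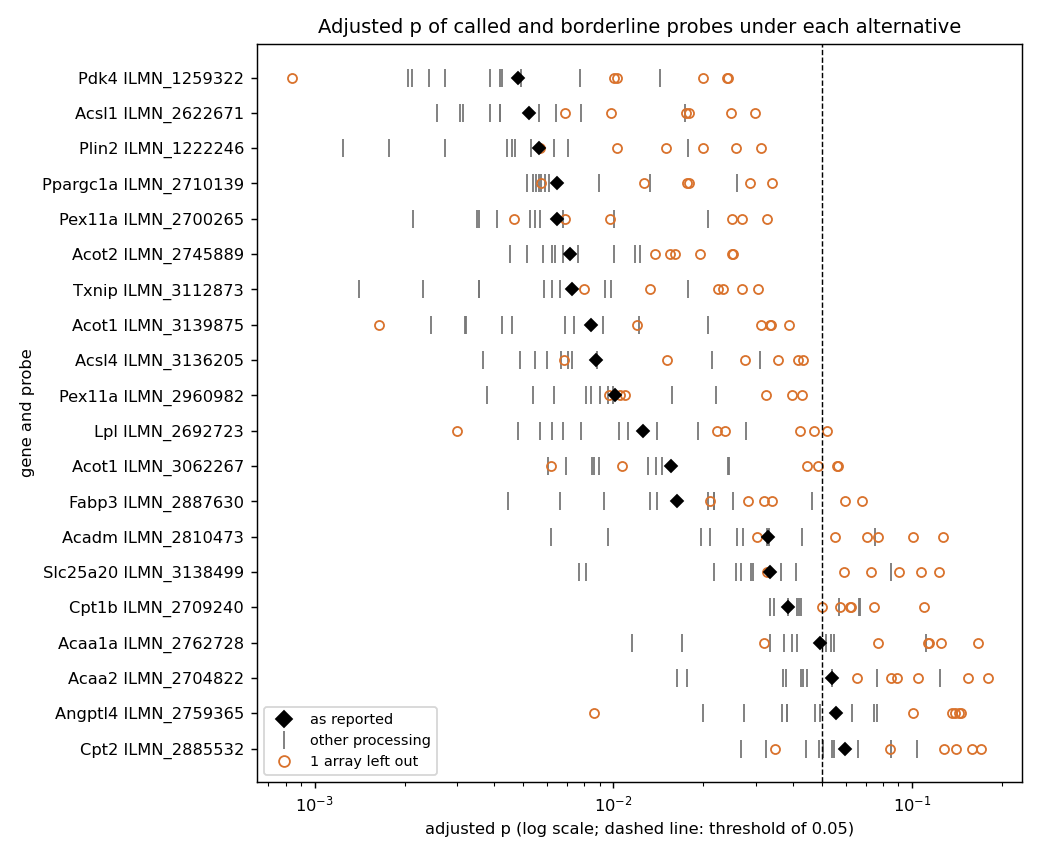
Adjusted p from limma (horizontal log axis) of the 17 called probes and of the tested probes of Angptl4 and Cpt2 and the highest Acaa2 probe, as reported (diamond), under other processing (ticks) and with 1 array left out (circles), with the threshold of 0.05 dashed. For 10 of the 17 called probes all symbols lie below the threshold, while Acadm, Slc25a20, Cpt1b and Acaa1a cross it under several settings.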

How the data were processed

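Biotin-labelled cRNA from total RNA of P6 lungs (3 hSRY-OFF, 3 hSRY-ON) was read on Illumina MouseRef-8 BeadChips. The authors deposited, for each probe and array, an intensity on a linear scale, neither background-corrected nor normalized, and a detection p-value from negative controls on the same array. The bead software is not given in the sources used here. The study's methods name the count-based package TCC. Because the values are intensities, the test was made with limma (version 3.58.1, under R 4.3.3), a tool that the submitters' processing notes also name.

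Intensities were corrected by normexp from the detection p-values (offset 16), quantile normalized and log2 transformed. Of 25697 probes, 13841 were kept, those detected at p under 0.05 in 3 or more lungs. The model (lmFit, eBayes) had no covariates, and Benjamini-Hochberg adjustment covered every kept probe. With an adjusted p under 0.05 a probe was called. The procedure was tested on simulated data with the same noise in both groups, so the larger spread of the hSRY-ON lungs was not covered. Array medians before normalization were 177.1 to 204.0, and precision is limited by the 3 arrays per group. Nothing in the labels says how the lungs were paired or batched, and chip and slide were not given, so batch was not examined. Probes were not merged by gene. For a probe undetected on all arrays of a group, the fold is a bound against the lowest detected signal. An exact permutation test of 3 against 3 cannot give a p under 0.1. Members and lists were chosen with earlier results of these data known. Named genes were all members, the 5 largest called rises and falls of the wider list whose groups did not overlap, and the 2 brightest tested genes of each marker list. Further marker genes were named where members of a list differed. Some of these are not reported here. Alternatives covered background correction, normalization, detection filter, variance model, replicate block, threshold and leaving out each array.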

Additional observations from a re-analysis of the deposited data

How the results depend on the processing

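Of the 17 called probes, 10 were called under each of the 16 alternatives of processing and sample choice, and 17 of the 29 uncalled probes stayed uncalled throughout. With 1 array left out, the number of called probes ranged from 11 to 20, of higher probes from 11 to 17 and of lower probes from 0 to 5. At an adjusted p under 0.01, 9 probes were called, 9 of them higher and 0 lower. The median change ranged from 0.21 (no detection filter, 68 probes) to 0.40, and the median of all tested probes from -0.042 to -0.005. In the wider list the 22 called probes became 8 to 30 with 1 array left out, the 16 higher ones 7 to 21 and the 6 lower ones 1 to 9. The same replicate number did not mark related lungs (correlations of deviations of -0.11, 0.096 and -0.093). With the replicate number as a block, 14 probes of the set were called, 13 higher and 1 lower, without Slc25a20, Acadm and Acaa1a, and 14 of the wider list, of which 3 were lower. The sign turned only in probes that were not called. With 1 array left out, Cpt1b (ILMN_1227666) ranged from -0.12 to 0.20, Crat (ILMN_1220786) from -0.52 to 0.002, Acads from -0.26 to 0.029 and from -0.31 to 0.13 in its 2 probes, Hadhb from -0.80 to 0.17 and Acsl5 from -0.006 to 0.069. The lung marker Scgb1a1 was -0.032 with cyclic loess and -0.004 with array weights, against 0.007, and -0.034 to 0.083 with 1 array left out. The causes were not tested. Probes detected on no array have no level here, and dim probes such as those of Ppargc1a, Acot2 and Cpt1b depend on the background correction.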
